A study of Mus musculus with 16 samples.

Results

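Secreted antimicrobial and mucosal defence genes were examined in mouse seminal vesicles (SVs), the male accessory glands that make most of the fluid of semen. The members were chosen by name as 10 defence genes of epithelial cells and neutrophils (*Lcn2*, *Slpi*, *S100a8*, *S100a9*, *Camp*, *Saa1*, *Saa3*, *Pigr*, *Wfdc2* and *Lyz2*), out of 31274 genes in the expression table. The table held RNA-seq of whole SVs at week 5 in 16 samples, with 4 samples in each of 4 groups. WT-veh were wild type C57BL/6 mice given corn oil, and WT-DES were wild type mice given the synthetic oestrogen diethylstilbestrol (DES) in corn oil. The αERKO-veh and αERKO-DES groups (written aERKO in the labels) were mice of the same strain that lack oestrogen receptor α (ERα, encoded by *Esr1*) throughout the body, with the same vehicle or the same DES. Injections under the skin were given from day 1 to day 5 after birth, with DES at 2 µg per pup per day, so the tissue was taken weeks after exposure had ended. The null pups came from heterozygous breeding, whereas the wild type pups were born to purchased pregnant females. The methods describe single mice for 3 groups and 3 pools of several mice for WT-DES, whereas 4 WT-DES samples are labelled. Which of these were pools, and whether all 4 were separate ones, is not stated, so what the spread of WT-DES, given with n = 4, measures is not known.

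Mucosal surfaces are guarded by proteins that epithelial cells secrete and by proteins that neutrophils and macrophages carry in. Some members withhold metals from microbes (lipocalin 2 binds iron-carrying siderophores, and the calprotectin pair S100a8 and S100a9 binds zinc and manganese), some attack microbes directly (the cathelicidin Camp and lysozyme Lyz2), and some restrain the proteases that inflammatory cells release (Slpi, and the related WAP-domain protein Wfdc2). *Pigr* encodes the receptor that carries IgA and IgM across epithelium into secretions, and *Saa1* and *Saa3* encode serum amyloid A proteins, which rise in liver or in inflamed tissue during the acute phase.

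The promoter of *S100a9* is shown because its transcript rose most among the members, and that of *Pigr* because it is an epithelial member with a smaller rise. These are the 250 bases before the RefSeq start on GRCm38.p6, 5′ to 3′ on the gene's strand, at chr3:90695722-90695971 (minus strand) for *S100a9* and chr1:130826434-130826683 (plus strand) for *Pigr*. Capitals mark a match to the C/EBP motif TTGCNNAA.
S100a9: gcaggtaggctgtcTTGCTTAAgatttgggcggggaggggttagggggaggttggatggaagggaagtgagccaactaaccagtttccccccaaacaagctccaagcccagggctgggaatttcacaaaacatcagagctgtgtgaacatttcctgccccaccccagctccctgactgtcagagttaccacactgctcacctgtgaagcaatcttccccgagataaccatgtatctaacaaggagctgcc
Pigr: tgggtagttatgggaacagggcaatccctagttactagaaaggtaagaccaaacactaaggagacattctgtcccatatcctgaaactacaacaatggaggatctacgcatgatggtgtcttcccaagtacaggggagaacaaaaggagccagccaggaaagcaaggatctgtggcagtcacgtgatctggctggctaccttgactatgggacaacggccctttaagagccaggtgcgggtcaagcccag

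The same C/EBP motif, which C/EBPβ and its relatives bind, was found on either strand in 5 of the 10 members, against 9.55% of 27025 mouse promoters of this length. It began 216 bases before the start in *Lcn2*, 241 in *Slpi*, 236 in *S100a9*, 182 in *Saa1* and 99 in *Saa3*. The 4 matches outside *S100a9* are shown in windows of 30 bases, with the motif in capitals, at chr2:32387937-32387966, chr2:164356728-164356757, chr7:46743144-46743173 and chr7:46715757-46715786 in that order, all on the minus strand.
Lcn2: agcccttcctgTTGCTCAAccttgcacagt
Slpi: gaatttgtaTTGAGCAAtaggttagagttt
Saa1: ctgtgctcccaTTGCACAAtgagggagaat
Saa3: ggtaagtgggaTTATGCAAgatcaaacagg

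None of the 10 windows held the consensus oestrogen response element GGTCANNNTGACC, which was in 0.0629% of all promoters, so few matches could have been seen. The NF-kB motif GGGAANNNCC (4.81% of all promoters) and the AP-1 motif TGANTCA (6.87%) were also not found in the 10 windows. *S100a8* held TATAAA, read on the gene's strand only, 30 bases before its start, a motif present in 8.12% of all promoters. The matches found do not overlap one another, annotated transcripts of some members start further upstream, and a match or its absence describes these letters alone.

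Values are fragment counts scaled for exon length and for library size (FPKM), and were tested as log2(FPKM + 1) with limma over all 16 samples. A gene was called at an adjusted p of 0.05 or less if its means also differed 1.5-fold or more and exceeded 1 FPKM in either group. Of the members, 9 exceeded a mean of 1 FPKM somewhere and were among the 15988 genes tested, and *Saa1* was not tested. *S100a9* and *Camp* passed this filter through WT-DES alone. Their differences of WT-DES from WT-veh and from αERKO-DES, and their interaction terms, were therefore in part fixed by the filter.

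After DES in WT, 9 of the 10 members were called higher and none lower, where 28.9% of all tested genes were called higher and 23.9% lower. In the same comparison 8 of the 10 members had every WT-DES sample above every WT-veh sample (32.7% of tested genes), the exceptions being *Saa1* and *Pigr*, and the same 8 were above all 12 other samples (24.2% of tested genes). In αERKO, 0 of the 10 members were called with DES, against 1.49% of tested genes by limma, and 2 members, *Pigr* and *Wfdc2*, had an unadjusted p under 0.05, each with a lower value after DES. That share was not stable: 239 of all tested genes were called with DES in αERKO, 1 without αERKO-veh sample 4, 653 without αERKO-veh sample 1, 5 after quantile normalization and 1119 with sample weights. Between the DES groups, 9 of the 10 members were called lower in αERKO-DES than in WT-DES (29.6% of tested genes). The DES change was called larger in WT than in αERKO for 8 of the 10 members by the interaction term (29.6% of tested genes), and *Lcn2* was the tested member that was not. The counts of 9 and 8 include *S100a9* and *Camp*, whose calls were in part fixed by the filter. These comparisons share their samples, and the calls were not independent of each other.

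**Figure D1:**
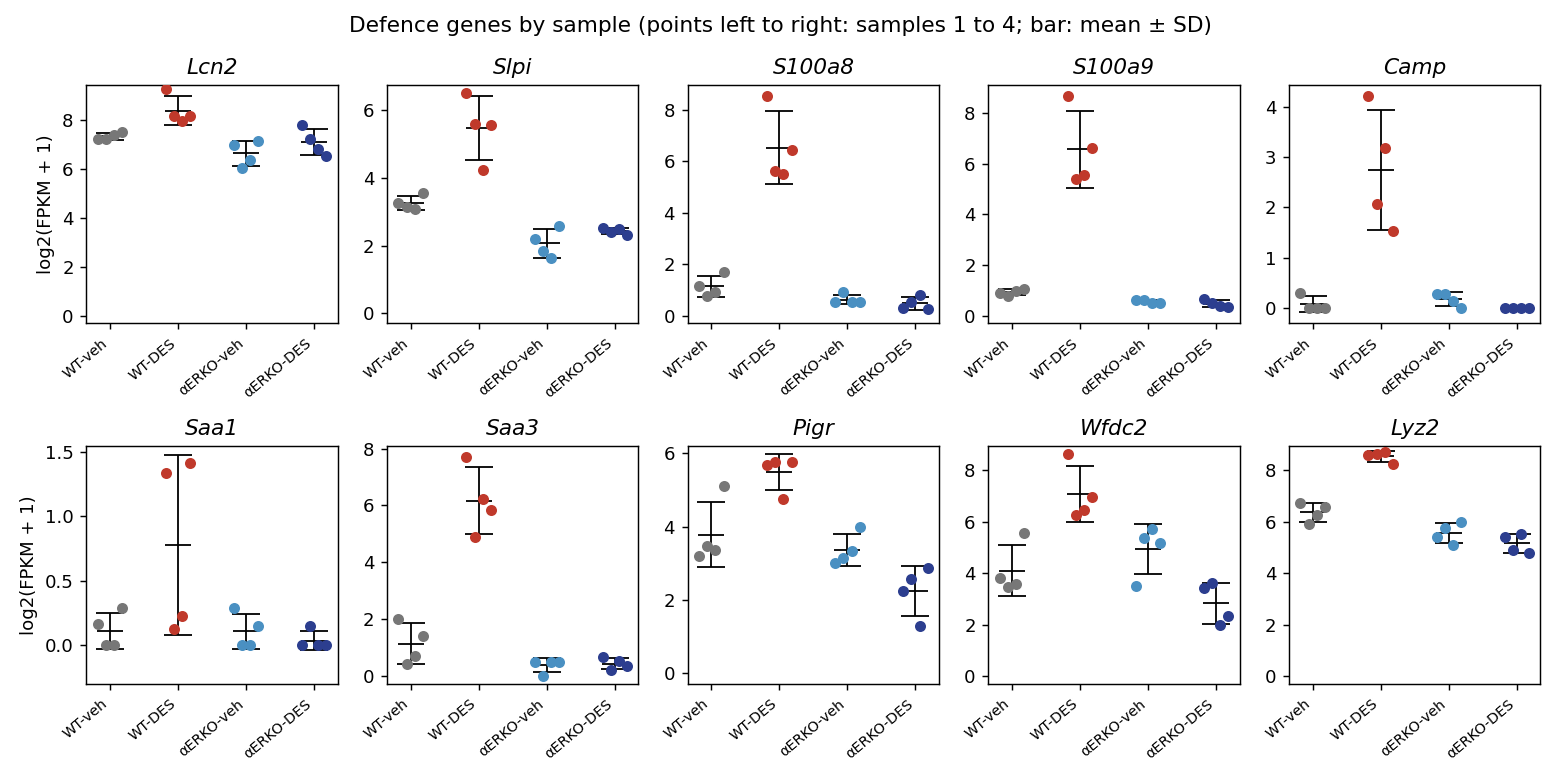
Values of the 10 defence genes in each of the 16 samples, as log2(FPKM + 1) on the vertical axis and by group on the horizontal axis, with points for samples 1 to 4 from left to right and bars for the mean ± SD (n = 4). The WT-DES points lie above those of the other 3 groups for most genes, and WT-DES sample 1 is the highest for 7 of the 10 genes.

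*S100a8* and *S100a9* together form calprotectin, the most abundant protein of the neutrophil cytosol, and also made by stressed squamous epithelium. *S100a8* was at 1.24, 0.69, 0.87 and 2.25 FPKM in the 4 WT-veh samples and at 371.29, 47.79, 44.7 and 85.48 FPKM in the 4 WT-DES samples. In αERKO its values lay between 0.44 and 0.87 FPKM with vehicle and between 0.21 and 0.72 FPKM with DES. The lowest WT-DES value was thus far above the highest of the other 12 samples, and the αERKO groups overlapped. The ratio of means in WT was 109, with a log2 change of 5.39 ± 0.48 (SE, n = 4 per group, limma adjusted p = 1.41e-07), and in αERKO the log2 change was -0.15 ± 0.48 (limma adjusted p = 0.879).

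*S100a9* followed its partner closely. It was at 0.89, 0.71, 0.95 and 1.09 FPKM in WT-veh and at 414.6, 41.4, 46.72 and 97.37 FPKM in WT-DES, and it stayed between 0.27 and 0.57 FPKM in the 8 αERKO samples. The log2 change in WT was 5.65 ± 0.49 (limma adjusted p = 1.1e-07), the largest among the members. Per length, the ratio of *S100a9* to *S100a8* was 1.12, 0.87, 1.05 and 1.14 in the 4 WT-DES samples, so the pair stood near equal levels there although the samples themselves differed widely. In the other groups, where both genes were near the lower end of the scale, the ratio ran from 0.42 to 2.48.

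*Lcn2*, the siderophore-binding lipocalin, was the member with the highest level in vehicle-treated SVs. It was at 149.53, 149.57, 165.17 and 180.9 FPKM in WT-veh and at 618.55, 288.61, 245.56 and 284.23 FPKM in WT-DES. The αERKO-veh samples were at 126.56, 64.84, 81.66 and 140.5 FPKM and the αERKO-DES samples at 222.32, 150.24, 113.55 and 92.55 FPKM. Each WT-DES sample was above the other 12 samples, while the αERKO groups overlapped. In WT the mean rose 2.23-fold, from 161 ± 15.0 to 359 ± 174 FPKM (SD, n = 4), with a log2 change of 1.05 ± 0.31 (SE, limma adjusted p = 0.00704), the smallest change among the called members. In αERKO the log2 change was 0.47, with a 95% confidence interval of -0.20 to 1.14. The difference between the genotypes was 0.58 on the log2 scale, with an interval of -0.36 to 1.53 (limma adjusted p = 0.251), so for *Lcn2* a dependence of the DES change on genotype was not detectable with these samples. This result depended on the processing: the difference was 1.66 after quantile normalization (limma adjusted p = 0.00193), 1.14 with equal totals after removing the 20 most abundant genes (limma adjusted p = 0.0174), 1.04 after correction for transcript length (limma adjusted p = 0.029) and 0.72 with sample weights (limma adjusted p = 0.0475). The value also moved with single samples, and was 0.28 without WT-DES sample 1 (limma adjusted p = 0.506).

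*Camp* encodes the cathelicidin stored in the secondary granules of neutrophils. In WT-DES it was at 17.55, 3.17, 8.02 and 1.89 FPKM. In WT-veh it was at 0.24 FPKM in sample 1 and listed at 0 in the other 3 samples, in αERKO-veh it reached at most 0.22 FPKM, and in αERKO-DES it was listed at 0 in all 4 samples. Every WT-DES sample was above the other 12, with a log2 change in WT of 2.67 ± 0.39 (SE, limma adjusted p = 2.25e-05). No fold is given, because WT-veh was at or near 0.

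*Saa3*, the serum amyloid A gene expressed by macrophages and epithelium outside the liver, was at 3.02, 0.33, 0.62 and 1.65 FPKM in WT-veh and at 210.22, 28.41, 74.56 and 56.84 FPKM in WT-DES. The αERKO samples lay between 0 and 0.56 FPKM. The log2 change was 5.04 ± 0.46 in WT (SE, limma adjusted p = 1.59e-07) and 0.06 ± 0.46 in αERKO (limma adjusted p = 0.956). *Saa1*, the paralog known mainly from liver, did not share this level. It was at 1.53, 0.09, 0.17 and 1.67 FPKM in WT-DES and at most 0.22 FPKM elsewhere, and WT-DES samples 2 and 3 overlapped the WT-veh samples. *Saa2*, its near-identical neighbour, reached 1.05 FPKM in WT-DES sample 4 and stayed at or below 0.28 FPKM in the other 15 samples, and reads of *Saa1* and *Saa2* may have been shared between them. With no minimum on FPKM, the log2 change of *Saa1* in WT was 0.66 (limma adjusted p = 0.0268), and its means remained below 1 FPKM in both groups.

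The values near 0 in *Saa1*, *Camp* and *S100a8* rest on very few fragments. The lowest values above 0 came in steps, at 0.11, 0.12 and 0.22 FPKM for *Saa1* and at 0.11, 0.22 and 0.24 FPKM for *Camp* in the groups other than WT-DES. Of 1093 odorant receptor genes, from 8 to 37 per sample fell in a narrow band of low FPKM fixed in advance. Their values averaged between 0.054 and 0.061 FPKM in the 12 samples outside WT-DES and between 0.047 and 0.050 FPKM in WT-DES. The band itself holds these averages close together, so they cannot show whether the spacing differed between the groups, and the depth is unknown. None of 12 common housekeeping genes was listed at 0 in any sample.

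*Slpi*, the secretory leukocyte protease inhibitor that protects epithelium from neutrophil elastase, was at 8.53, 7.89, 7.55 and 10.69 FPKM in WT-veh and at 89.96, 47.36, 17.81 and 46.48 FPKM in WT-DES. The αERKO-veh samples were at 3.6, 2.6, 2.09 and 4.98 FPKM and the αERKO-DES samples at 4.79, 4.24, 4.6 and 3.96 FPKM. Here the groups fell into 3 levels, with WT-DES highest, WT-veh between, and both αERKO groups below every WT sample. The mean rose 5.82-fold with DES in WT (log2 change 2.21 ± 0.34, SE, limma adjusted p = 3.07e-05), against 0.37 ± 0.34 in αERKO (limma adjusted p = 0.522). The difference between genotypes, 1.85 ± 0.48 on the log2 scale, was called (limma adjusted p = 0.00299).

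*Wfdc2*, an epithelial WAP-domain protein also known as HE4 and first found in epididymis, was at 13.24, 9.92, 10.84 and 46.66 FPKM in WT-veh and at 390.95, 76.07, 86.98 and 122.32 FPKM in WT-DES. Every WT-DES sample was above the other 12, and the mean ratio was 8.38 (log2 change 2.97 ± 0.62, SE, limma adjusted p = 0.000497). In αERKO the mean with DES, 6.96 FPKM, was below that with vehicle, 34.2 FPKM. The αERKO-veh samples were at 10.49, 40.39, 51.05 and 34.76 FPKM and the αERKO-DES samples at 9.74, 11.14, 2.95 and 4 FPKM, overlapping through αERKO-veh sample 1. The log2 change of -2.11 ± 0.62 did not pass the test (limma adjusted p = 0.0687). It did pass without αERKO-veh sample 1 (-2.58, limma adjusted p = 0.0227) and without WT-DES sample 1, which enters through the shared variance (-2.11, limma adjusted p = 0.0356), and with sample weights (-2.01, limma adjusted p = 0.000817).

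*Pigr* showed a similar shape at lower amplitude. It was at 8.08, 10.01, 9.31 and 33.43 FPKM in WT-veh and at 50, 53.03, 26.13 and 53.11 FPKM in WT-DES, where sample 3 lay below WT-veh sample 4. The αERKO-veh samples were at 6.96, 7.74, 9.03 and 14.99 FPKM, and the αERKO-DES samples, at 3.74, 4.91, 1.46 and 6.32 FPKM, were below all of them. The log2 change was 1.71 ± 0.42 in WT (SE, limma adjusted p = 0.00182) and -1.12 ± 0.42 in αERKO, which did not pass the test (limma adjusted p = 0.124) except with sample weights (-1.55, limma adjusted p = 0.0014). For the difference between genotypes, the log2 value was 2.82 ± 0.59 (limma adjusted p = 0.000602).

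In vehicle-treated SVs, high *Wfdc2* went together with transcripts of skeletal muscle. Averaged as log2(FPKM + 1), 5 skeletal muscle markers stood at 7.57 in WT-veh sample 4 and 7.58, 8.06 and 7.29 in αERKO-veh samples 2, 3 and 4, and between 2.13 and 4.93 in the other 12 samples. Those 4 samples were the vehicle samples with the highest *Wfdc2*, and WT-veh sample 4 and αERKO-veh sample 4 were also the highest of their groups for *Pigr*. The fast myosin light chain *Mylpf* was at 306.64 FPKM in WT-veh sample 4 and at 249.99, 384.12 and 219.15 FPKM in αERKO-veh samples 2 to 4, and at most 27.11 FPKM elsewhere. The 5 markers were low in WT-DES (2.13 to 3.96), where *Wfdc2* was highest. Without those 4 samples, which leaves αERKO-veh with 1 sample that is assumed to vary like the other groups, the log2 change of *Wfdc2* was 3.46 in WT (limma adjusted p = 0.000232) and -0.69 in αERKO (limma adjusted p = 1), and that of *Pigr* was 2.15 in WT (limma adjusted p = 0.00026) and -0.75 in αERKO (limma adjusted p = 1). The part of neighbouring tissue in the αERKO values was not tested otherwise.

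**Figure D2:**
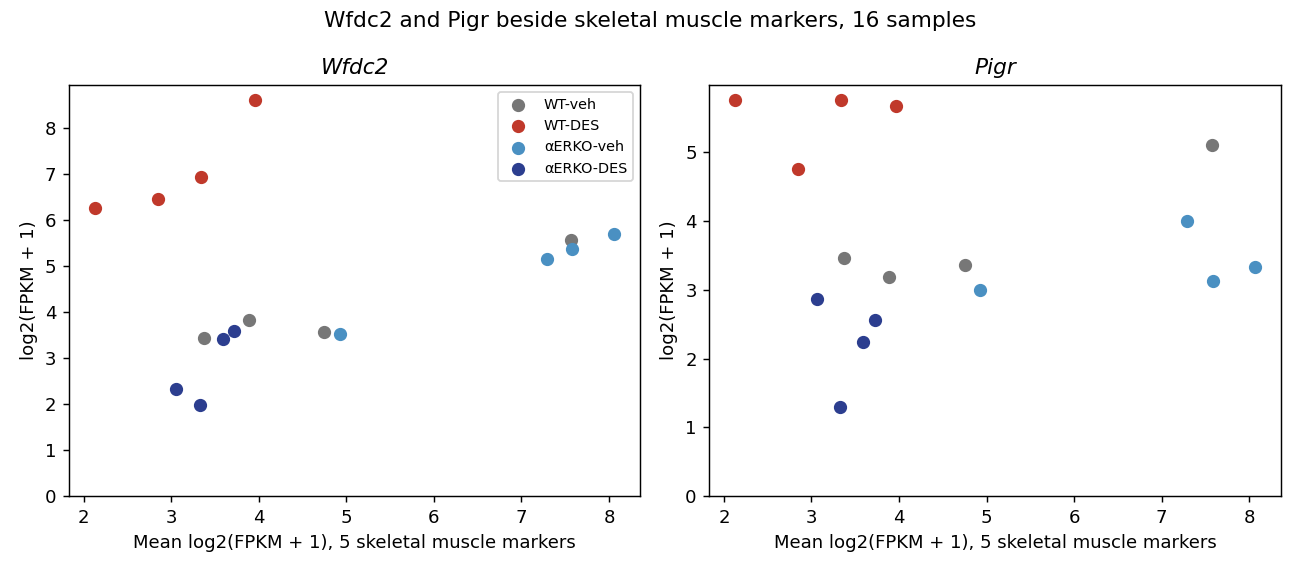
*Wfdc2* (left) and *Pigr* (right) as log2(FPKM + 1) on the vertical axis against the average of 5 skeletal muscle markers, as log2(FPKM + 1), on the horizontal axis, with 1 point for each of the 16 samples, coloured by group. The 4 vehicle samples with muscle marker means of 7.29 to 8.06 stand apart on the right, and the WT-DES samples hold the highest *Wfdc2* at low marker means.

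*Lyz2*, the lysozyme of macrophages and neutrophils, changed with the least spread. It was at 106.25, 58.63, 76.16 and 94.89 FPKM in WT-veh and at 384.05, 397.04, 417.91 and 299.27 FPKM in WT-DES, a coefficient of variation of 13.9% in WT-DES against 114% for *S100a8*. The αERKO-veh samples were at 41.37, 53.32, 33.5 and 61.99 FPKM and the αERKO-DES samples at 42.04, 29.12, 45.61 and 26.35 FPKM. In WT the mean rose 4.46-fold (log2 change 2.17 ± 0.22, SE, limma adjusted p = 6.03e-07), and in αERKO the log2 change was -0.40 ± 0.22 (limma adjusted p = 0.274). *Lyz1*, its near-identical paralog on the same chromosome, went the other way in WT, from a mean of 27.1 to 11.5 FPKM (log2 change -1.22 ± 0.23, SE, limma adjusted p = 0.00019). Reads of the 2 lysozyme genes may have been shared, so their separate values are uncertain.

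**Figure D3:**
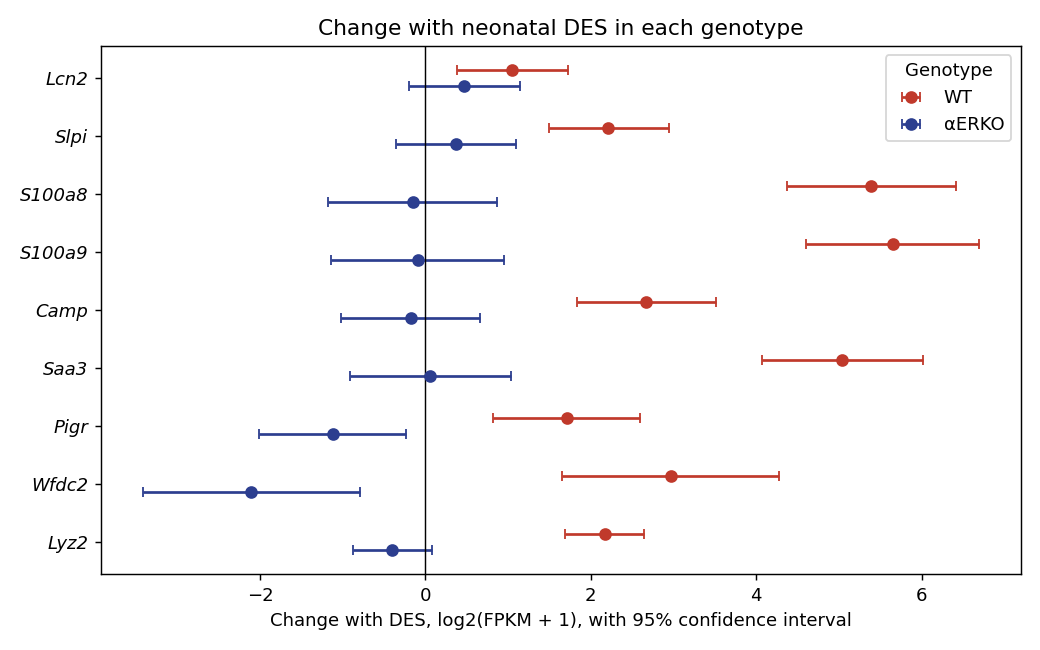
Change with DES for the 9 tested members on the log2(FPKM + 1) scale (horizontal axis), in WT (red) and in αERKO (blue), with 95% confidence intervals from limma. The WT intervals all lie above 0, from *Lcn2* at 1.05 to *S100a9* at 5.65, and the αERKO estimates lie between -2.11 for *Wfdc2* and 0.47 for *Lcn2*.

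Without DES, the genotypes differed in 2 of the 10 members, *Slpi* and *Lyz2*, which were called lower in αERKO-veh than in WT-veh, where 2.63% of tested genes were called lower. Mean *Slpi* was 8.67 ± 1.41 FPKM in WT-veh and 3.32 ± 1.27 FPKM in αERKO-veh (SD, n = 4), a 2.61-fold difference with no overlap between samples (log2 change -1.20, limma adjusted p = 0.0204). Mean *Lyz2* was 84.0 ± 20.97 FPKM in WT-veh and 47.5 ± 12.6 FPKM in αERKO-veh, where the groups overlapped (log2 change -0.81, limma adjusted p = 0.0189). Neither call held without WT-veh sample 4 or without αERKO-veh sample 3, nor after correction for transcript length, nor without the 4 samples rich in skeletal muscle transcripts. The log2 changes stayed negative, between -1.37 and -1.05 for *Slpi* and between -0.97 and -0.66 for *Lyz2* with 1 sample left out. Without the 4 muscle-rich samples they were -0.97 and -0.90, where a single αERKO-veh sample remained, and after correction for transcript length they were -0.86 and -0.54. With sample weights, *S100a8* was also called lower in αERKO-veh (-0.48, limma adjusted p = 0.0479) and *Wfdc2* higher (1.28, limma adjusted p = 0.00567). The call of *Slpi* was also lost without αERKO-veh sample 2 and that of *Lyz2* without WT-veh sample 1. *Lcn2* was 1.56-fold lower in αERKO-veh on average and did not pass the test (limma adjusted p = 0.112). *Esr1* itself fell from 3.87 ± 0.802 FPKM in WT-veh to 1.52 ± 0.195 FPKM in αERKO-veh (SD, n = 4), and was at 14.3 ± 4.59 FPKM in WT-DES and 1.30 ± 0.334 FPKM in αERKO-DES, with every αERKO sample below every WT sample.

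Because FPKM is per length, levels of different genes can be set side by side within a group. In WT-veh the order of mean FPKM was *Lcn2* (161), *Lyz2* (84.0), *Wfdc2* (20.2), *Pigr* (15.2), *Slpi* (8.67), *Saa3* (1.41), *S100a8* (1.26) and *S100a9* (0.910), with *Saa1* and *Camp* below 0.1. *Lcn2* was above *Lyz2* in all samples, whereas *Wfdc2*, *Pigr* and *Slpi* overlapped, and so did *Saa3*, *S100a8* and *S100a9*. In WT-DES the order became *Lyz2* (375), *Lcn2* (359), *Wfdc2* (169), *S100a9* (150), *S100a8* (137), *Saa3* (92.5), *Slpi* (50.4), *Pigr* (45.6), *Camp* (7.66) and *Saa1* (0.865), and neighbours in this order from *Lyz2* to *Pigr* overlapped in their sample values. In αERKO-DES *Lcn2* (145) and *Lyz2* (35.8) were again the highest.

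The 4 WT-DES samples differed among themselves, and sample 1 was highest for 7 of the 10 members. Against the median of the other 3 samples it was 8.87 times as high for *S100a9*, 7.77 for *S100a8*, 5.54 for *Camp*, 4.49 for *Wfdc2*, 3.70 for *Saa3*, 2.18 for *Lcn2* and 1.94 for *Slpi*. For *Lyz2* the ratio was 0.967 and for *Pigr* 0.943, so these members were not raised in that sample. Of 8 neutrophil markers, 7 were in the table and all 7 were called higher with DES in WT, but 6 of them exceeded a mean of 1 FPKM in WT-DES alone, so the filter in part fixed this count, and 28.9% of all tested genes were called higher. Without sample 1 the count was 6 of 6 tested, because *Mmp8* fell below the filter and left the count. This count was therefore also in part fixed by the filter. Their mean log2(FPKM + 1) was 4.11 in sample 1 against 1.74 to 2.38 in the other WT-DES samples and 0.08 to 0.30 in the other 3 groups. The chemokine receptor *Cxcr2* was at 17.1 FPKM in sample 1 and between 0.74 and 3.88 FPKM in the others, and was at most 0.05 FPKM in the other 12 samples. The macrophage markers did not single out sample 1, with means of 5.60, 5.74, 5.79 and 5.43. Smooth muscle markers also set sample 1 apart, with a mean of 9.13 against 6.94 to 7.63 in the other WT-DES samples and 8.79 to 9.11 in WT-veh. The 7 basal and squamous epithelial markers were highest in sample 4, with a mean of 6.59, and at 5.80 in sample 1. The part of these cell types in the values of sample 1 was not tested. In whole tissue, more cells of a type and more RNA per cell cannot be told apart.

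Without WT-DES sample 1, the 9 members were still called higher in WT. The ratio of means was then 47.0 for *S100a8*, 68.0 for *S100a9*, 37.9 for *Saa3*, 4.72 for *Wfdc2*, 4.30 for *Slpi* and 1.69 for *Lcn2*, the WT-DES mean of *Camp* was 4.36 FPKM, and the ratio changed little for *Lyz2* (4.42) and *Pigr* (2.90). Samples of WT-veh also moved the ratio, which was 14.9 for *Wfdc2* and 4.99 for *Pigr* without WT-veh sample 4 and 107 for *Saa3* without WT-veh sample 1.

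**Figure D4:**
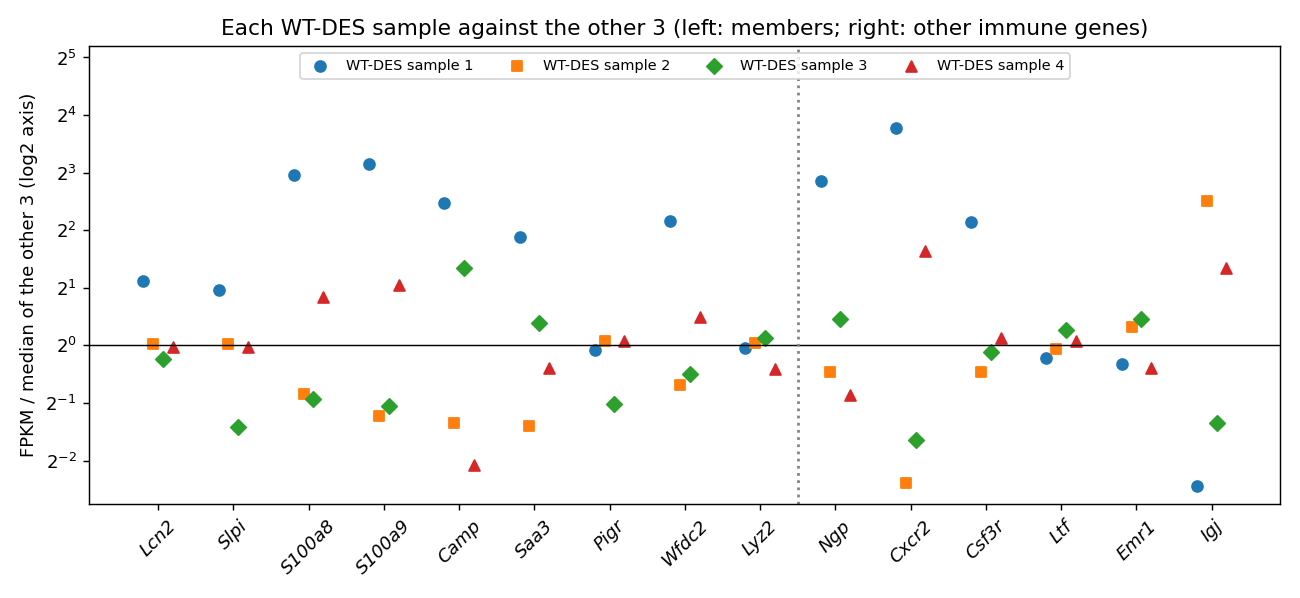
FPKM of each WT-DES sample divided by the median of the other 3 (vertical axis, log2-spaced) for the 9 tested members (left of the dotted line) and 6 other immune genes (right). Sample 1 stands highest for *S100a8*, *S100a9*, *Camp*, *Wfdc2*, *Saa3*, *Lcn2* and *Slpi* and for *Ngp*, *Cxcr2* and *Csf3r*, and lies near 1 for *Pigr* and *Lyz2* and lowest for *Igj*, the table's name for the J chain gene.

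Genes that accompany the members in neutrophils were raised as well. All 12 tested genes of 15 for neutrophil granules and surface were called higher with DES in WT (median log2 change 2.03, against -0.01 over all tested genes), and 0 of the 12 were called in αERKO by limma (0 at an unadjusted p under 0.05), where 28.9% of all tested genes were called higher in WT and 1.49% were called in αERKO. Of the 12, 8 exceeded a mean of 1 FPKM in WT-DES alone, so the count in WT was in part fixed by the filter. Without WT-DES sample 1 the count was 11 of 11 tested, also in part fixed, because *Mmp8* left the count. *Ngp*, a granule protein related to the cathelicidins, rose from a mean of 0.0375 to 12.3 FPKM (log2 change 3.14, limma adjusted p = 1.13e-05), and to 4.94 FPKM without WT-DES sample 1. *Ltf*, the iron-binding lactoferrin of neutrophil granules and of oestrogen-responsive epithelium, was at 166.78, 184.75, 221.26 and 193.38 FPKM in WT-DES and between 5.68 and 10.53 FPKM in WT-veh, and it was lowest rather than highest in WT-DES sample 1. *Elane*, the elastase that Slpi inhibits, reached 1 to 3.25 FPKM in WT-DES (limma adjusted p = 8.21e-07), with at most 0.18 FPKM elsewhere. The mean of the collagenase *Mmp8* was 0.085 FPKM in WT-veh and 6.20 FPKM in WT-DES, and the G-CSF receptor *Csf3r* had a ratio of 39.4. Without sample 1 the ratio of *Csf3r* was 20.6 and the WT-DES mean of *Cxcr2* was 1.96 instead of 5.74 FPKM. *Mmp8*, at 22.78 FPKM in sample 1 against 0.24 to 1.28 FPKM in the other 3, then fell below the filter.

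Other antimicrobial genes of mucosa were called in both directions. Of 16 tested genes among 23, 6 were called higher and 5 lower in WT with DES (median log2 change 0.61), where 28.9% and 23.9% of all tested genes were called, and 0 were called in αERKO by limma (2 at an unadjusted p under 0.05), against 1.49%. Of the 16, 7 passed the filter through WT-DES alone, and these gave 5 of the 6 higher calls. The lectin *Reg3g* rose from a mean of 0.095 to 17.3 FPKM, the nitric oxide synthase *Nos2* from 0.375 to 11.1 FPKM and the chitinase-like *Chil1* from 0.275 to 10.6 FPKM, or to 3.03 FPKM without WT-DES sample 1. In contrast, the beta-defensin *Defb1* was at 256.94, 190.8, 276.37 and 327.16 FPKM in WT-veh and at 23.52, 30.66, 12.02 and 19.98 FPKM in WT-DES. *Defb1* thus fell 12.2-fold in WT (log2 change -3.59 ± 0.25, SE, limma adjusted p = 1.27e-08), and in αERKO its log2 change was -0.56 ± 0.25 (limma adjusted p = 0.183).

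Relatives of the members are read against the same shares of all tested genes, 28.9% higher and 23.9% lower. Among 13 tested genes of 19 for WAP-domain proteins and related inhibitors, 5 were called higher and 2 lower in WT with DES (median log2 change 0.74), or 6 and 3 without WT-DES sample 1, and 1 of the 5 passed the filter through WT-DES alone. *Wfdc18* and *Wfdc17* had ratios of 9.94 and 4.75, and *Wfdc21*, listed as *1100001G20Rik*, a ratio of 7.87. Without WT-veh sample 4 the ratio was 65.2 for *Wfdc18* and 14.1 for *1100001G20Rik*. *Wfdc3* was 26.9-fold lower, or 15.1-fold without that sample, with WT-veh values as far apart as 2.19 and 225.82 FPKM. Of 12 tested S100 genes of 13 other than the calprotectin pair, 3 were called higher and 9 were not called (median log2 change 0.25), and without WT-DES sample 1 the count was 2 higher and 2 lower of 11. Of the 3 called higher, 2 (*S100g* and *S100a5*) passed the filter through WT-DES alone, and *S100a5* fell below it without WT-DES sample 1. The calcium carrier *S100g* rose from a mean of 0.198 to 7.11 FPKM (limma adjusted p = 0.000654), and its WT-veh mean was 0.05 FPKM without sample 2. Acute phase genes were mostly too low to test, with 4 tested of 14, of which 2 were called higher (median log2 change 1.39), 1 of them having passed the filter through WT-DES alone. Ceruloplasmin, *Cp*, rose 2.82-fold (limma adjusted p = 1.56e-08).

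*Slpi* and *Wfdc2* lie on chromosome 2 to the same side of a group of genes for major seminal vesicle secretory proteins. Their positions are 164354070-164389095 (minus strand) and 164562413-164568510 (plus strand) on GRCm38. Distances here are between RefSeq starts, with that of *Slpi* at 164356507, whereas the GENCODE gene reaches further upstream through another transcript. Of 42 genes within 500 kb of the *Slpi* start, 34 were tested, 7 were called higher and 15 lower in WT with DES, where 28.9% and 23.9% of all tested genes were called. The 7 include *Slpi* and *Wfdc2* themselves, which were chosen beforehand. All 6 *Svs* genes of the window lie on the side of *Slpi* away from *Wfdc2*, and all were called lower. *Svs5*, which starts 23.7 kb from *Slpi*, had a mean of 10820 FPKM in WT-veh and 1557 FPKM in WT-DES (log2 change -2.90, limma adjusted p = 2.44e-06). *Wfdc15b*, 134.8 kb away on the side of the *Svs* genes, fell 3.11-fold (limma adjusted p = 7.08e-05), and *Wfdc16*, on the side of *Wfdc2*, rose 8.49-fold from a mean of 0.433 FPKM (limma adjusted p = 0.000593). *Wfdc16* passed the filter through WT-DES alone, so its difference was in part fixed by the filter. Within this stretch the members therefore rose beside genes that fell.

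**Figure D5:**
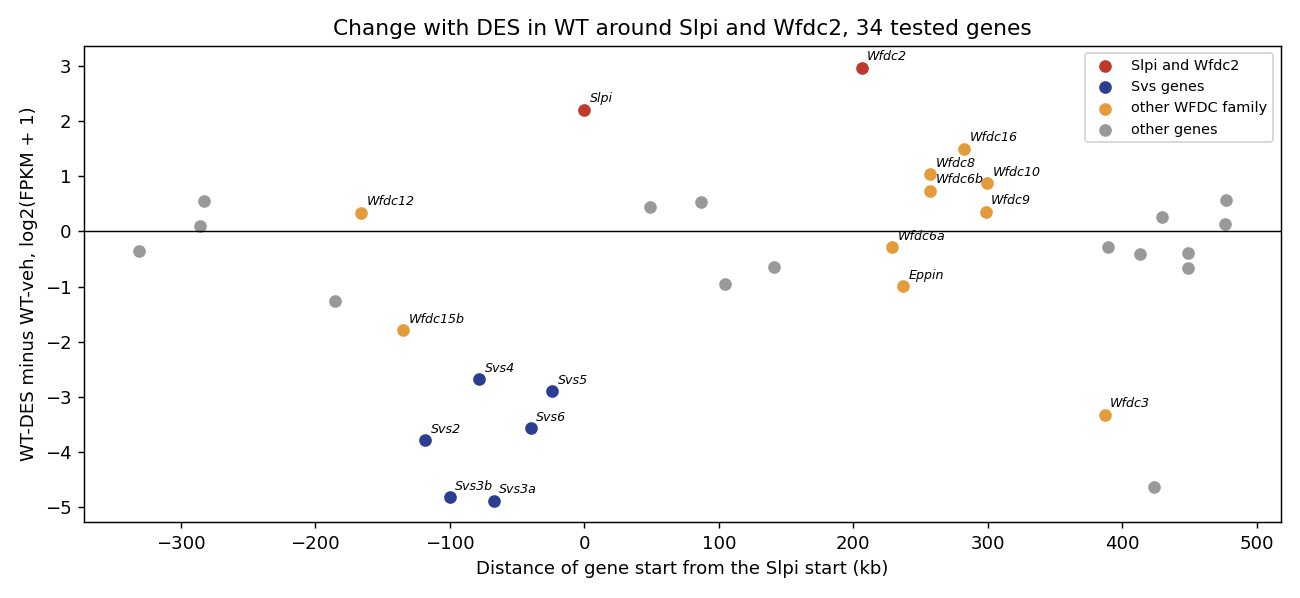
Change with DES in WT, on the log2(FPKM + 1) scale, for the 34 tested genes within 500 kb of the *Slpi* start, against the distance of each gene's RefSeq start from it in kb. *Slpi* (2.21) and *Wfdc2* (2.97) lie above 0, and the 6 *Svs* genes (-2.68 to -4.88) lie below.

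The other genes of immunoglobulin transport followed *Pigr* in part. Of 7 tested genes of 10, 5 were called higher and 1 lower in WT with DES (median log2 change 1.44), and 0 in αERKO by limma (1 at an unadjusted p under 0.05), against shares of 28.9%, 23.9% and 1.49% of all tested genes. Of the 5, 2 (*Igj* and *Mzb1*) passed the filter through WT-DES alone. The J chain gene, which joins the IgA and IgM that Pigr carries, was at 3.37, 40.98, 7.21 and 18.42 FPKM in WT-DES and between 0.19 and 0.74 FPKM in WT-veh (log2 change 3.27 ± 0.47, SE, limma adjusted p = 1.66e-05). Its order across the WT-DES samples was not that of the neutrophil genes, with the lowest value in sample 1, and its mean was 9.67 FPKM without sample 2. The B cell survival factor *Tnfsf13b* rose 8.73-fold and the IgG receptor *Fcgrt* 2.75-fold, whereas *Xbp1*, a regulator of secretory cells, fell 2.08-fold. The 6 B and plasma cell markers had a mean log2(FPKM + 1) of 0.88 to 2.94 in WT-DES and 0.09 to 0.35 in the other groups.

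Of 9 tested receptors and binding partners of the members among 10, 7 were called higher and none lower in WT with DES (median log2 change 1.12), and 1 was called in αERKO, lower. Of all tested genes, 28.9% were called higher and 23.9% lower in WT and 1.49% were called in αERKO, and 1 of the 7, *Fpr2*, passed the filter through WT-DES alone. *Fpr2*, a receptor for cathelicidin and serum amyloid A, rose from a mean of 0.12 to 6.90 FPKM. *Tlr4*, a receptor for calprotectin, rose 2.48-fold (limma adjusted p = 2.4e-06), *Tlr2* 6.81-fold and *Cd14* 5.50-fold. The gene called in αERKO was the scavenger receptor *Cd36*, chosen here after its value was seen, with means of 17.1 FPKM in αERKO-veh and 2.88 FPKM in αERKO-DES, beside 4 adipose markers whose mean log2(FPKM + 1) lay from 2.51 to 6.52 with vehicle and from 1.18 to 2.27 with DES in αERKO. The part of fat in it was not tested. *Ager*, another calprotectin receptor, had a ratio of 1.33 and *Slc22a17*, the lipocalin 2 receptor, a ratio of 1.08, and neither was called.

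Among 15 tested of 21 genes for cytokines, their receptors and regulators of inflammatory signalling, 11 were called higher and 2 lower in WT with DES (median log2 change 1.24). In αERKO, 0 were called by limma (2 at an unadjusted p under 0.05). The shares of all tested genes were 28.9%, 23.9% and 1.49% in that order. Of the 11, 5 (*Il1a*, *Il1b*, *Tnf*, *Il1f9* and *Csf3*) passed the filter through WT-DES alone. The 2 called lower were the IL-17 receptor genes *Il17rc*, from a mean of 39.9 to 23.0 FPKM, and *Il17re*, from 25.6 to 15.2 FPKM. Without WT-DES sample 1 the WT-DES mean of *Il17re* was 9.89 FPKM. *Il1b* was at 66.99, 16.58, 16.53 and 16.07 FPKM in WT-DES and between 0.23 and 0.53 FPKM in WT-veh (log2 change 4.14 ± 0.34, SE, limma adjusted p = 6.21e-08). Without sample 1 its WT-DES mean was 16.4 FPKM and its ratio 41.8. *Tnf* rose 15.9-fold and *Socs3*, a target of STAT3, 11.97-fold. *Il36g*, listed as *Il1f9*, had 20.94 FPKM in WT-DES sample 1 and 0.47 to 3.29 FPKM in the other 3, whose mean was 1.53 FPKM.

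Marker lists of other cell types were also called in WT with DES, where 28.9% of all tested genes were called higher and 23.9% lower. All 8 macrophage markers were called higher, with means of 5.43 to 5.79 in WT-DES and 3.37 to 4.08 in WT-veh on the log2(FPKM + 1) scale. Of 6 leukocyte markers 5 were called higher, the exception being *Cd52*, which is also a secretory product of the male tract and fell from a mean of 2919 to 452 FPKM. Of 7 basal and squamous epithelial markers 6 were called higher, 2 of which passed the filter through WT-DES alone, and of 7 general epithelial markers 5 were called lower (4 without WT-DES sample 1). All 8 seminal vesicle secretion markers, at means of 12.47 to 12.70 in WT-veh, fell to 7.63 to 9.61 in WT-DES, and all 6 fibroblast markers rose. Smooth muscle markers were lower (4 of 5 called, and 5 of 5 without WT-DES sample 1, which was at the level of WT-veh), adipose markers higher (3 of 4) and the 3 blood markers in the table were not called (1, *Alas2*, without WT-DES sample 1). Their part in the changes of the members was not tested.

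The genes whose pattern over the 16 samples was most like that of a member were chosen by Pearson's r of log2(FPKM + 1), as a description. For *S100a8* they were *S100a9* (r = 0.996), the chemokine receptor *Ccr1* (0.994) and *Gp49a* (0.993). Nearest to *Wfdc2* were *Ckmt1* (0.987), *Ndrg2* (0.975) and *Aldh3a1* (0.975), and to *Pigr* they were *Hebp1* (0.930), *1810010H24Rik* (0.924) and *Nupr1* (0.923). *Lcn2* was most like *Vasp* (0.941), *Basp1* (0.937) and *Plekho1* (0.936). The 4 members had no neighbour in common among these, and the values share the 4 groups and the libraries.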

How the data were processed

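RNA-seq was performed on SVs at week 5, in 16 samples of 4 groups. The authors deposited FPKM values per gene, made from paired-end reads filtered on quality, aligned to mm10 (GRCm38) with TopHat2 2.0.4 and quantified with Cufflinks 2.0.2, per the submitters' processing notes. The annotation of the table and any further scaling are not given in the sources used here. No counts were used, so the depth per sample is unknown and the spread within each group of 4 samples, which for WT-DES may include pools, sets the precision.

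All 16 columns matched the labels. Values were tested as log2(FPKM + 1), a scale on which changes of low genes are understated, in R 4.3.3 with limma 3.58.1, in 1 model that fits each group's mean, with moderated variances that follow a trend on expression. Benjamini-Hochberg adjustment ran over the 15988 genes that exceeded a mean of 1 FPKM in any group, and the thresholds followed the study. The interaction was called at an adjusted p of 0.05 or less and a difference of 1.5-fold or more. Scripts were tested on simulated data. The members and the lists were chosen with earlier results of these data known. From each list of related genes, up to 4 called genes with the largest ratio and a mean FPKM of at least 5 were named, with known partners and paralogs of the members and, for 4 members, the 3 genes of most similar pattern. *Mylpf*, *Cd52*, *Alas2* and the genes near *Slpi* were named after their values were seen. No entry was matched for *Ly6g*, *Anos1* and *Hba-a1*. Promoters are from RefSeq (GRCm38.p6), all 10 members matched, distances are between RefSeq starts, and gene positions are from GENCODE M21. Figures were drawn with matplotlib 3.10.9.

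Alternatives were a pseudocount of 0.1, mean FPKM filters of 5 or none, fits restricted to the compared groups, variances without the trend, sample weights, a replicate block, median-ratio, quantile and equal-total scaling (without the 20 most abundant genes), a lowess correction for transcript length (span 0.3, 94.1% of tested genes with a length), and each sample left out. Leaving out the 4 samples with the highest skeletal muscle markers was added after seeing the data.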

Additional observations from a re-analysis of the deposited data

Results flagged for a closer look

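In 39 member and group combinations with any spread, 11 had a sample far from the other 3 by Dixon's test at its 95% critical value. For normally distributed values chance flags about 1 in 20 groups. The count cannot be read against that rate, because FPKM is skewed and the members share their samples. A sample above 0 beside 3 at 0 is also always flagged. In WT-DES, sample 1 stood above the others for *Lcn2* (618.55 FPKM), *S100a8* (371.29 FPKM), *S100a9* (414.6 FPKM) and *Wfdc2* (390.95 FPKM), and sample 3 stood below the others for *Pigr* (26.13 FPKM). In WT-veh, sample 4 stood above for *Pigr* (33.43 FPKM) and *Wfdc2* (46.66 FPKM), and sample 1 for *Camp* (0.24 FPKM, the others listed at 0). In αERKO-veh, sample 2 stood above for *S100a8* (0.87 FPKM) and below for *Saa3* (listed at 0), and in αERKO-DES sample 2 stood above for *Saa1* (0.11 FPKM, the others listed at 0). The flags of *Camp*, *Saa1*, *Saa3* and *S100a8* outside WT-DES concern values of few fragments.

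The change with DES differed between WT and αERKO by the limma interaction term for 8 members. The differences, WT minus αERKO on the log2 scale, were 5.74 for *S100a9*, 5.55 for *S100a8*, 5.07 for *Wfdc2*, 4.98 for *Saa3*, 2.85 for *Camp*, 2.82 for *Pigr*, 2.57 for *Lyz2* and 1.85 for *Slpi*. For *Wfdc2* and *Pigr* a lower αERKO-DES mean contributed to the difference, and neither αERKO change was called.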

How the results depend on the processing

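Over 28 alternatives, the 45 member changes gave 1251 values, of which 1217 kept the direction and the side of the threshold. The 9 members called in WT with DES, and between the DES groups, were 9 or 10 under each alternative (the tenth being *Saa1*), and the interaction count was 8 or 9. The count in αERKO with DES, 0, was 2 with sample weights (*Wfdc2* and *Pigr*), and 0 to 1 with samples left out (1 without WT-DES sample 1 or αERKO-veh sample 1). The 2 members lower in αERKO-veh than in WT-veh became 3 lower (with *S100a8*) and 1 higher (*Wfdc2*, 1.28) with sample weights, 4 calls in all, 1 after quantile normalization, 0 after length correction, 0 without the 4 samples with the highest skeletal muscle markers, and 0 to 2 with samples left out (0 without WT-veh sample 4 or αERKO-veh sample 3, and 1 without WT-veh sample 1 or αERKO-veh sample 2). With the replicate number as a block the counts were 9, 0, 2, 9 and 8, as without it. The numbers did not pair the samples: deviations of same-numbered samples correlated between -0.013 and 0.078 in WT and between -0.022 and 0.277 in αERKO. The direction reversed for some changes not called in the report's test. With DES in αERKO these were *Slpi* (-0.08, sample weights), *S100a8* (0.01) and *S100a9* (0.08, quantile normalization), and *Saa3* (-0.12 with sample weights, 0.00 after length correction, -0.06 without the muscle samples, and -0.06 to 0.13 with samples left out, negative without αERKO-veh sample 2 or αERKO-DES sample 1). Between the vehicle groups these were *S100a9* (0.04, length correction), *Camp* (-0.06) and *Pigr* (0.36) with sample weights, *Pigr* without WT-veh sample 4 (-0.63 to 0.02 with samples left out) and *Wfdc2* without the muscle samples (-0.09). The causes were not tested. Equal totals without the 20 most abundant genes shifted the median of all tested genes by 0.39 in WT with DES, median-ratio scaling by 0.13, quantile normalization by -0.07 and the minimum of 5 FPKM by -0.13. Of all calls in that comparison 54.7% were higher, and 79.2%, 63.7%, 48.3% and 45.8% in that order. In αERKO with DES the 239 calls over all genes became 5 after quantile normalization, 6 with the 2 groups alone, 6 without the muscle samples, 1119 with sample weights and 1 to 653 with samples left out, so the share of 1.49% is unstable. The unknown depth limits *Saa1* and *Camp*.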
